A study of Mus musculus with 8 samples.

Results

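The miR-297, miR-466, miR-467 and miR-669 families were followed in mouse serum after a high dose of X-rays. Members were all mouse miRNAs on the array named miR-297, miR-466, miR-467 or miR-669 with a letter after the number, from either arm of the hairpin, which gave 61 of 1881 miRNAs. There were 3 members of the miR-297 family, 23 of the miR-466 family, 12 of the miR-467 family and 23 of the miR-669 family. The name ended in 5p for 25 members and in 3p for 26, and 10 members had no arm in the name.

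Serum came from male C57BL/6NJcl mice of 8 weeks, of which 4 samples were from non-irradiated mice (0 Gy) and 4 from mice exposed to 7 Gy at 1 Gy per min and taken 72 h later. RNA from 200 µl of serum was used, and 30 ng per sample was labelled with Cy3 and hybridized to a SurePrint G3 mouse miRNA array, a glass slide whose spots carry short probes against known miRNAs. Each sample had 1 array, all 8 on the same slide. The sample titles number the replicates but do not say whether each serum came from a separate mouse or a pool, so that p-values measure only the spread between these samples.

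MicroRNAs are short RNAs that are cut from the 5p or 3p arm of a hairpin and pair through their seed, bases 2 to 8, with messenger RNAs. In the mouse most hairpins of these families lie in an intron of Sfmbt2, a Polycomb group gene on chromosome 2 that is expressed from the paternal allele and is needed in the placenta. The cluster arose by repeated local duplication in rodents, and its members are known from embryonic stem cells and trophoblast. Closely related copies lie on other chromosomes.

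By gene name, 60 of the 61 members were matched to hairpins in the GRCm38.p6 annotation, and miR-466a-5p was not matched. All hairpins of 49 members lay within Sfmbt2. Another 3 members, miR-297a-3p, miR-466f-3p and miR-466f-5p, had hairpins both there and elsewhere. The remaining 8 members had no hairpin in Sfmbt2, so that the families are wider than the Sfmbt2 cluster. These were miR-466i-3p and miR-466i-5p on chromosome 13, miR-466j on chromosome 10, miR-466k, miR-466q and miR-669n on chromosome 3, miR-467f on chromosome 11 and miR-467g on chromosome 5.

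RefSeq listed the mature sequence of 7 members, all of them outside Sfmbt2. They are shown because most of them hold a run of dinucleotide repeats. They also include 3 of the members described by array below (miR-466q, miR-467f and miR-669n). Capitals mark the seed.
miR-466i-3p: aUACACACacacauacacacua
miR-466q: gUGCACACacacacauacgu
miR-467f: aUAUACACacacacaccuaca
miR-467g: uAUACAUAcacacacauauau
miR-466j: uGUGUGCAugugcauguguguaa
miR-466k: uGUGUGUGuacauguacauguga
miR-669n: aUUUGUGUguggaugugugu

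On GRCm38.p6, miR-466i-3p lay at chr13:17747552-17747573 on the plus strand, within the span of the protein-coding gene Cdk13. miR-467f lay at chr11:69635419-69635439 on the minus strand, within Fxr2, and miR-466q at chr3:28419988-28420007 on the plus strand, within Tnik. miR-669n lay at chr3:115979905-115979924 on the plus strand, within Slc30a7. The table used gives gene spans and not exons, so that intron and exon were not told apart.

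The 7 sequences had 7 different seeds, and no other array miRNA with a listed sequence shared any of them. The other members had no listed sequence, so that seeds and runs shared with them could not be seen. The first 4 were rich in A and C (70% to 86.4% of their bases) and the last 3 in G and U (69.6% to 90%). The run ACACACAC was searched in the mature sequences as written, on the RNA strand only, and stood in 4 of 1608 array miRNAs with a sequence (0.249%), all of them members. The run UGUGUGUG stood in 7 of 1608 (0.435%), of which miR-466k and miR-669n were members.

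A miRNA was taken as present on an array where the scanner software called it detected. At least 1 array gave such a call for 25 of the 61 members. This was 41.0%, near the 42.7% of all 1881 miRNAs, but it rested in part on 1 array. Of the 25 members, 10 were detected on 7 Gy replicate 2 alone (40.0%), against 40 of the 804 miRNAs ever detected (4.98%). All 8 arrays detected 2 members (3.28%), miR-466i-5p and miR-466h-3p, against 16.5% of all miRNAs. The other 36 members were detected on no array.

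The number of members detected differed mostly between arrays of the same group. At 0 Gy, replicates 1 to 4 detected 14, 12, 2 and 7 members, a mean of 8.75 ± 5.38 (SD, n = 4). At 7 Gy they detected 2, 22, 2 and 11, a mean of 9.25 ± 9.50 (SD, n = 4). The groups overlapped over most of their range.

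Over all miRNAs the same arrays detected between 531 and 603 in the non-irradiated group, and between 378 and 687 in the irradiated group. The 5 arrays with the most members detected were also the 5 with the most miRNAs detected, in the same order. The members fell more steeply than the rest: on 7 Gy replicate 2 the share of members detected was 36.1% against 36.5% of all miRNAs, and on 7 Gy replicate 1 it was 3.28% against 20.1%. On 0 Gy replicate 3 it was 3.28% against 28.2%.

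**Figure D1:**
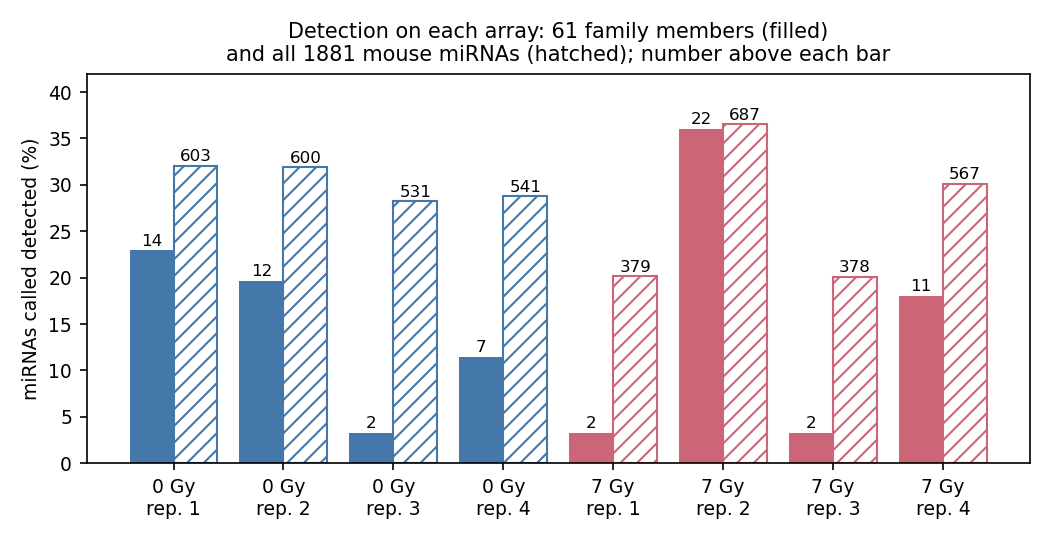
Share of the 61 members (filled bars) and of all 1881 mouse miRNAs (hatched bars) called detected on each array, in percent, with the number above each bar. Blue marks 0 Gy and red 7 Gy. Members lie between 2 (0 Gy replicate 3, 7 Gy replicates 1 and 3) and 22 (7 Gy replicate 2), and both groups hold arrays with few and with many.

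The labelling spike-ins, RNAs added before the dye reaction, moved with part of this. Their log10 signal was 3.68, 3.45, 2.73 and 3.37 on 0 Gy replicates 1 to 4. On 7 Gy replicates 1 to 4 it was 2.31, 3.35, 1.95 and 1.97, and it was out of the software's range on 7 Gy replicates 1, 3 and 4. The hybridization spike-ins were in range on all arrays. The 90th percentile of the miRNA signals ran from 33.4 to 91.2 at 0 Gy, and was 8.21, 93.9, 7.68 and 47.1 at 7 Gy, so that scaling to a common percentile multiplied 7 Gy replicates 1 and 3 by 4.33 and 4.63 and the other 6 arrays by 0.379 to 1.06. On those 2 arrays the effective spot size given by the software was 0.6, against 0.787 to 0.798 on the other 6. The part of labelling and scan in the results below was not tested.

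Serum was checked with miRNA lists for the cells and organs that can shed RNA into it. Of 5 red cell miRNAs, 2 were detected on all 8 arrays, as was 1 of 4 platelet and myeloid, 1 of 4 lymphocyte, 1 of 4 muscle and 1 of 3 pancreatic miRNAs. The liver list had 0 of 2 on all arrays and 2 of 2 on at least 1, and the brain list, miR-124-3p and miR-9-5p, was detected on none. Of 8 miRNAs of germ line and embryonic stem cells, where the Sfmbt2 cluster is also known, 1 was detected on all 8 arrays. At least 1 array detected 2 of the 8, and miR-291a-3p, miR-292a-3p, miR-295-3p and all 3 listed miR-302 members were detected on none. On 7 Gy replicates 1, 3 and 4, 2 of the 5 red cell miRNAs were detected, against 5 of 5 on the other arrays. Some other lists were lower on the same 3 arrays. The platelet and myeloid list had 1 of 4 on each of them against 4 of 4 elsewhere, the liver list 0 of 2 against 2 of 2, the lymphocyte list 1 or 2 of 4 against 3 or 4, and the muscle list 1 or 2 of 4 against 2 to 4. On these 3 arrays the pancreatic list had 1 of 3, and the germ line and embryonic stem cell list 1 of 8. Each 0 Gy array had the same counts, and 7 Gy replicate 2 had 2 in each list. The part of these sources in the members' values was not tested.

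Detection was counted by the place of the hairpins. Of the 49 with hairpins only in Sfmbt2, 17 (34.7%) were detected at least on 1 array and 4 (8.16%) on 4 arrays or more. Of the 8 with no hairpin there, 6 (75%) were detected at least on 1 array and 5 (62.5%) on 4 or more, namely miR-466i-3p, miR-466i-5p, miR-466q, miR-467f and miR-669n. Of all 1881 miRNAs, 561 (29.8%) were detected on 4 or more. The 4 inside Sfmbt2 were miR-466h-3p, miR-669c-3p, miR-669f-3p and miR-669p-3p. Members with the most hairpins were mostly undetected: miR-669a-5p, with 12 hairpins, and miR-467a-5p, with 10, and miR-466b-3p, with 8, were detected on no array, and miR-467a-3p, with 10, on 1. These are counts over chosen members and were given no test.

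**Figure D2:**
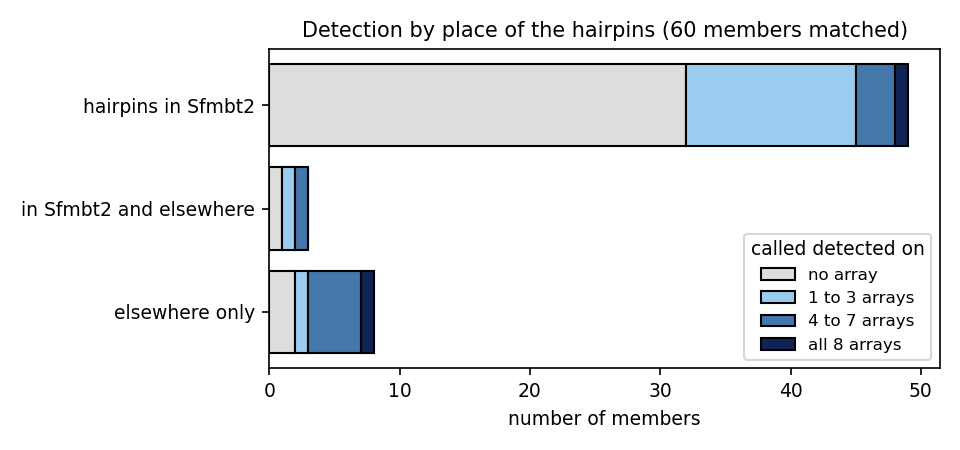
Number of members by the place of their hairpins on GRCm38.p6, divided by the number of arrays (of 8) on which they were called detected. Most of the 49 members inside Sfmbt2 were on no array (32), while 5 of the 8 members outside it were on 4 arrays or more, as were 29.8% of all 1881 miRNAs.

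By family, 1 of 3 miR-297, 11 of 23 miR-466, 4 of 12 miR-467 and 9 of 23 miR-669 members were detected at least on 1 array. By arm, 13 of 25 members ending in 5p (52.0%) and 7 of 26 ending in 3p (26.9%) were, against 46.8% and 39.1% of the other mouse miRNAs. The split between the arms varied from array to array. On 7 Gy replicate 2, 11 of the 5p members and 6 of the 3p members were detected, and on 7 Gy replicate 4, 1 and 6. As shares these were 44.0% and 23.1% on replicate 2, where the other mouse miRNAs had 40.7% and 31.4%. On replicate 4 they were 4.0% and 23.1%, beside 31.5% and 27.5%.

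Members detected on more 7 Gy than 0 Gy arrays numbered 11 of 61 (18.0%), against 8.61% of all miRNAs, and none of the 11 was detected at 0 Gy. This count rested on 1 array. 7 Gy replicate 2 alone gave 10 of the 11, of which 9 end in 5p: miR-466c-5p, miR-466f-5p, miR-466h-5p, miR-466m-5p, miR-467c-5p, miR-669e-5p, miR-669k-5p, miR-669l-5p and miR-669o-5p. The other was miR-466j. Without that array, 1 member, miR-466g, was detected at 7 Gy and not at 0 Gy (1.64%, against 3.30% of all miRNAs).

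Of all 1881 miRNAs, 40 were detected on 7 Gy replicate 2 alone, 22 of them ending in 5p, so that the 10 members were 40.0% of the 25 members ever detected where the 40 were 4.98% of the 804 miRNAs ever detected. In the other direction, 9 members were detected on fewer 7 Gy than 0 Gy arrays (14.8%, against 14.4% of all). Of these, miR-297c-5p, miR-467a-3p and miR-467b-5p were detected at 0 Gy and on no 7 Gy array. The first 2 were on 0 Gy replicate 1 alone, and miR-467b-5p was on 0 Gy replicates 1 and 2. No member was detected on all arrays of one group and none of the other.

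**Figure D3:**
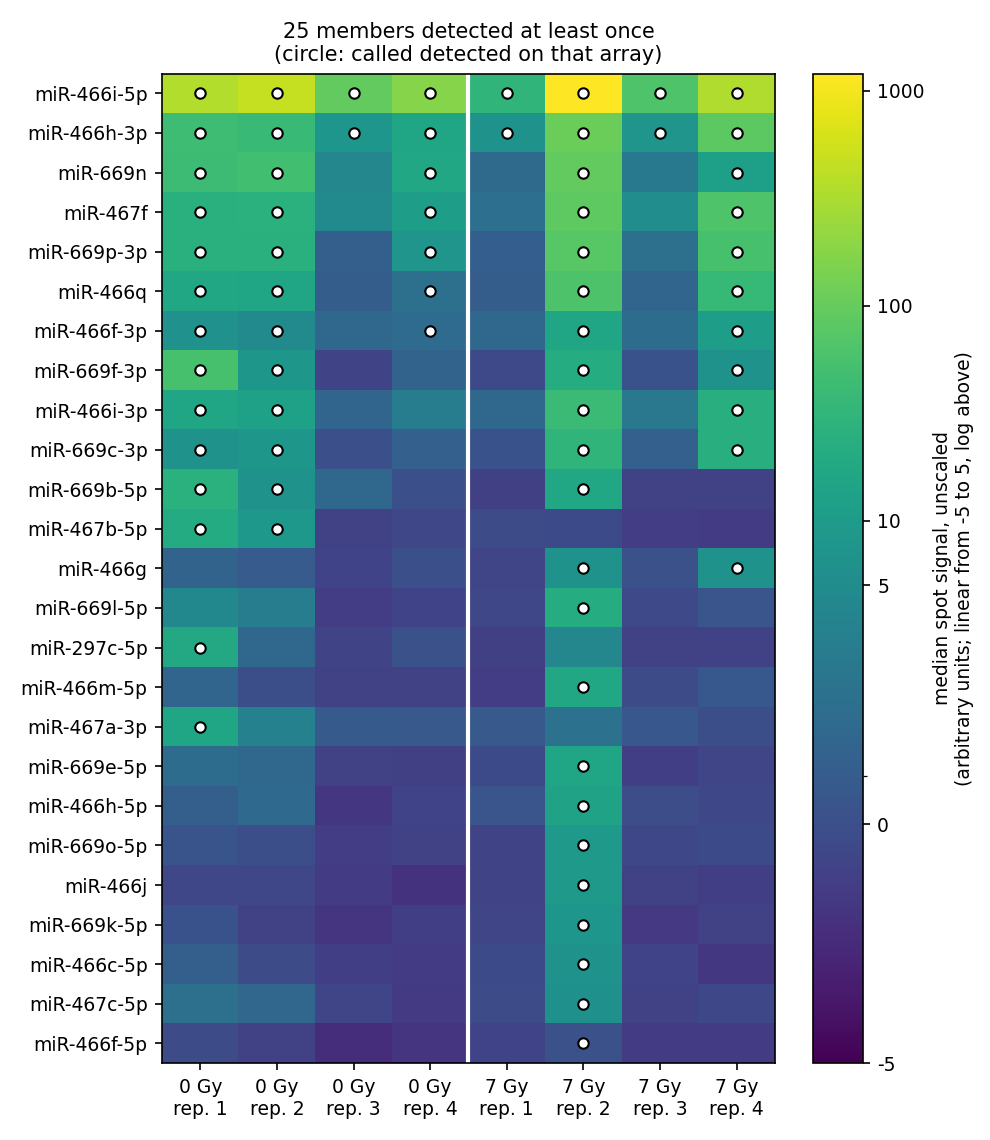
Median signal over the spots of each of the 25 members detected at least on 1 array (rows) on each array (columns), before scaling, in arbitrary units on a scale that is linear from -5 to 5 and logarithmic above. Circles mark arrays where the member was called detected. The column of 7 Gy replicate 2 is the brightest for 20 of the 25 members and 0 Gy replicate 1 for the other 5, and brightness is read along a row only. Of the 20, 10 are shown only because 7 Gy replicate 2 detected them, so that this count was set in part by the choice of rows.

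Spot signals were read for the same members, since each had 30 spots of 1 to 4 probes. They are background-subtracted and can fall below 0. The 1000 negative control spots of each array had a 95th percentile of 4.69 to 7.27. Of the 36 members never detected, 2 had a median spot above that percentile on any array, and their highest median was 7.59. The median over spots was highest on 7 Gy replicate 2 in 20 of the 25 detected members and on 0 Gy replicate 1 in the other 5, which were miR-297c-5p, miR-467a-3p, miR-467b-5p, miR-669b-5p and miR-669f-3p. Of the 20, 10 were among the 25 only through their call on 7 Gy replicate 2, as were miR-297c-5p and miR-467a-3p through 0 Gy replicate 1. The count was thus set in part by how the 25 were chosen. These signals are unscaled, and the 2 arrays had the highest 90th percentiles of all miRNAs (93.9 and 91.2).

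miR-466i-5p, cut from the 5p arm of the hairpin that also gives miR-466i-3p, was the only member that passed the filter for the comparison of the groups. The filter kept 208 miRNAs that were detected on at least 3 arrays and lay above a floor of 100 on at least 1 after scaling. Its total signal before scaling was 193, 268, 53.0 and 97.0 on 0 Gy replicates 1 to 4. It was 13.0, 685, 27.3 and 190 on 7 Gy replicates 1 to 4. The 7 Gy samples thus held both the highest value and the lowest values of the 8. Its 30 spots were well above background on every array, and the brighter of its 2 probes exceeded the other by 1.16 to 1.31 times.

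After scaling, miR-466i-5p had 75.4, 121, 56.4 and 90.2 at 0 Gy, a mean of 85.7 ± 27.2 (SD, n = 4). It had 56.5, 259, 126 and 144 at 7 Gy, a mean of 146 ± 84.2 (SD, n = 4). Replicates 2, 3 and 4 at 7 Gy lay above all 0 Gy samples, and 7 Gy replicate 1 lay within them. With values under 100 set to 100, the log2 difference of 7 Gy over 0 Gy was 0.49 (SE 0.29), with a 95% confidence interval of -0.18 to 1.16 and an adjusted p of 0.296 by limma with Benjamini-Hochberg adjustment over 208 miRNAs. The median over all 208 was 0.17. That floor replaced 3 of the 4 values at 0 Gy and 1 of the 4 at 7 Gy, so that this difference was set in part by the floor.

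Called miRNAs at an adjusted p under 0.05 were 1.92% of those tested in each direction (4 higher and 4 lower), and 0 members were among them. miR-466i-5p did not pass at an unadjusted p of 0.130 either, where 22.1% of the tested miRNAs passed as higher and 7.69% as lower. It did pass unadjusted, as higher, when 7 Gy replicate 1 was left out (adjusted p = 0.223 by limma). With no floor its log2 difference was 0.63, and an exact two-sided permutation test over the 70 arrangements of the 8 arrays gave p = 0.229, where the smallest p possible is 0.0286. The direction turned without scaling, where the log2 difference with no floor was -0.63 (exact permutation p = 0.657). Without 7 Gy replicate 2 the log2 difference by limma was 0.13, and without 7 Gy replicate 1 it was 0.86.

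miR-466h-3p, a member with hairpins in Sfmbt2, was detected on all arrays and lay under the floor of 100 on each. Its signal before scaling was 26.0, 22.5, 3.34 and 8.68 at 0 Gy. It was 2.23, 64.0, 2.01 and 51.1 at 7 Gy. On 0 Gy replicate 3 and on 7 Gy replicates 1 and 3, between 5 and 6 of its 30 spots were well above background.

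After scaling these became 10.1, 10.1, 3.55 and 8.07 at 0 Gy. At 7 Gy they became 9.68, 24.2, 9.30 and 38.6. The 7 Gy samples fell in 2 pairs, replicates 2 and 4 above all 0 Gy samples and replicates 1 and 3 among them. The log2 difference with no floor was 1.21 (exact permutation p = 0.171, two-sided), and before scaling it was -0.05 (exact permutation p = 1.0).

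**Figure D4:**
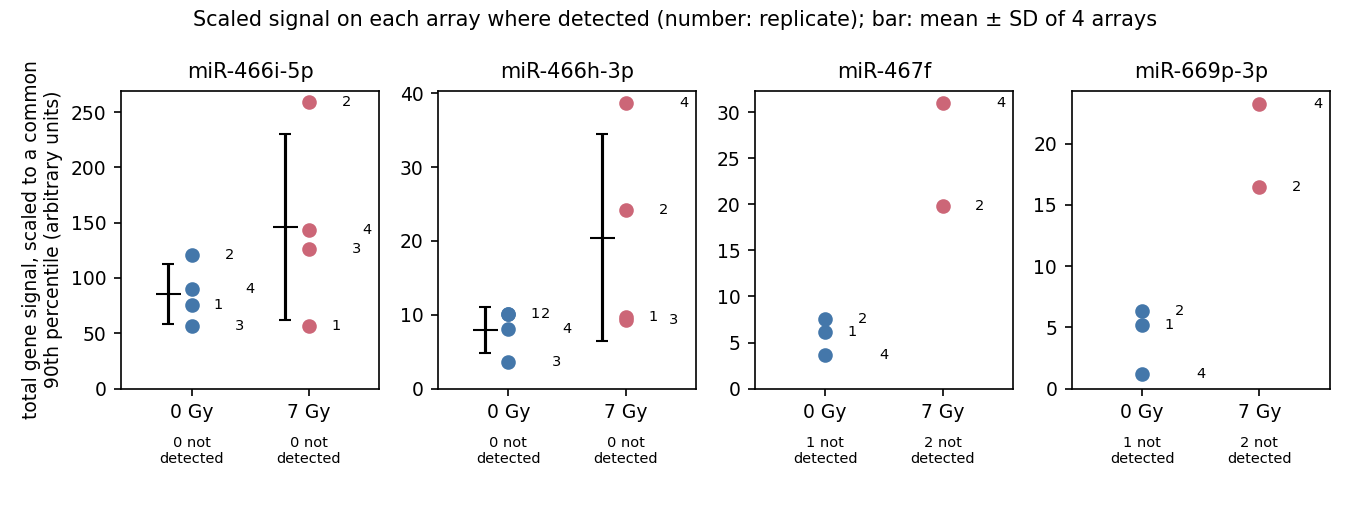
Total signal after scaling, in arbitrary units, of 4 members by group, with a point for each array where the member was detected and its replicate number beside it. The black bar is the mean ± SD of 4 arrays where all 4 detected it. 7 Gy replicates 2 and 4 lie above every 0 Gy sample in all 4 panels, and 7 Gy replicates 1 and 3 lie lower than both for miR-466i-5p and miR-466h-3p and were not detected for the other members.

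The other named members were detected on some arrays only. miR-467f, one of the AC-rich sequences above, had 6.11, 7.54 and 3.66 on 0 Gy replicates 1, 2 and 4 after scaling. It had 19.8 and 31.0 on 7 Gy replicates 2 and 4. miR-466q, from a hairpin in Tnik, had 3.12, 3.69 and 2.12 on the same 0 Gy arrays and 12.1 and 16.2 on the same 7 Gy arrays. Both were higher on each 7 Gy array that detected them than on any 0 Gy array, and both were undetected on 0 Gy replicate 3 and on 7 Gy replicates 1 and 3.

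miR-669p-3p, from the Sfmbt2 cluster, had the same pattern of calls. It had 5.23, 6.37 and 1.22 on 0 Gy replicates 1, 2 and 4 and 16.5 and 23.2 on 7 Gy replicates 2 and 4. miR-669n, the GU-rich sequence above, was detected on the same 5 arrays with 9.33, 12.6 and 9.18 in the 0 Gy samples, followed by 20.5 and 5.13 in the irradiated ones. Here the 2 irradiated samples lay on either side of all 0 Gy samples, unlike the 3 members before it.

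miR-669f-3p, with hairpins in Sfmbt2, was led by a non-irradiated sample. It had 13.4 and 1.5 on 0 Gy replicates 1 and 2 and 4.65 and 2.06 on 7 Gy replicates 2 and 4. miR-467b-5p had 4.41 and 1.49 on 0 Gy replicates 1 and 2. miR-297c-5p and miR-467a-3p had 3.93 and 3.39 on 0 Gy replicate 1. The levels of these members lay far under the floor of 100, and miR-297a-3p and miR-297b-5p were detected on no array.

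The probes of a member did not always carry equal signal. On 7 Gy replicate 2 the brighter probe of miR-669n exceeded the other by 1.03 times, and the brightest of the 4 probes of miR-669p-3p exceeded the dimmest by 1.08 times. For miR-467f the ratio was 1.84, and for miR-466q it was 3.50. For miR-669f-3p it was 3.95 on 0 Gy replicate 1.

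With the floor lowered to 10, 513 miRNAs were tested and 8 of them were members. At an adjusted p under 0.05, 1.75% were called higher and 3.7% lower, and 0 members were called. At an unadjusted p under 0.05, 18.9% passed as higher and 9.16% as lower, and again 0 members did. For miR-466i-5p, which lay above this floor on all 8 arrays, the log2 difference was 0.63 (adjusted p = 0.362 by limma). The other 7 were at the floor on arrays of both groups, from 2 of 4 at 0 Gy and 2 of 4 at 7 Gy for miR-466h-3p to 4 and 3 for miR-466i-3p, so that their differences were set by the floor and their groups could not lie apart.

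With spot signals in place of the total signal, which keeps values for arrays without a detection call, 633 miRNAs were tested and 11 of them were members. Scaled values under 1 were set to 1. At an adjusted p under 0.05, 0.316% were called higher and 1.11% lower, and 0 members were called. At an unadjusted p under 0.05, 14.2% passed as higher and 16.4% as lower, and 3 members passed as higher, miR-466f-3p, miR-466i-3p and miR-466h-3p. The median log2 difference was 1.26 over the 11 members and 0.62 over all 633, so that the median miRNA was also higher at 7 Gy, although more passed as lower than as higher. The median of all 633 was taken over miRNAs of any level, and not over those as dim as most members. Of the 8 members above 1 on all 8 arrays, 6 lay above it, miR-466f-3p by 1.07, miR-466i-3p by 0.87, miR-466q by 0.68, miR-467f by 0.66, miR-466h-3p by 0.64 and miR-669p-3p by 0.60. The other 2 lay below it, miR-466i-5p at -0.10 and miR-669n at -0.71. The remaining 3, miR-669c-3p, miR-669f-3p and miR-669b-5p, were at the floor of 1 on 1 array at 0 Gy each and on 1, 2 and 3 arrays at 7 Gy, and their differences were set in part by that floor. On 7 Gy replicates 1 and 3 miR-466i-5p and miR-466h-3p were the only members called detected, so that the scaled values of the others there come from spots without a detection call.

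Groups did not overlap for miR-466f-3p and miR-466h-3p, both higher at 7 Gy, where 9.32% of the 633 were apart in that direction and 5.69% in the other. miR-466f-3p had scaled spot signals of 23.1, 18.1, 6.64 and 12.6 in the 0 Gy samples. The 7 Gy samples had 25, 54.3, 41.1 and 67.8, with a log2 difference of 1.69 (SE 0.58, adjusted p = 0.101 by limma). On 7 Gy replicates 1 and 3 it was not called detected, and its median spot before scaling was 1.93 and 2.34. There the median of the negative control spots was 1.76 and 1.63, and scaling then multiplied the spots of these arrays most. It was called detected on 3 arrays at 0 Gy and on 2 at 7 Gy. Its 30 spots, of 4 probes, were uneven. On 7 Gy replicate 2, 17 of them were well above background, and all 30 had a median of 16.0 and an SD of 28.8 before scaling. miR-466h-3p had a log2 difference of 1.26 (SE 0.56, adjusted p = 0.159 by limma). Its groups lay close, with 43.1 as the highest 0 Gy value (replicate 1) and 45.7 as the lowest 7 Gy value (replicate 1). Labelling was out of range on that 7 Gy array, and the total signals of miR-466h-3p after scaling, given above, overlapped between the groups.

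**Figure D5:**
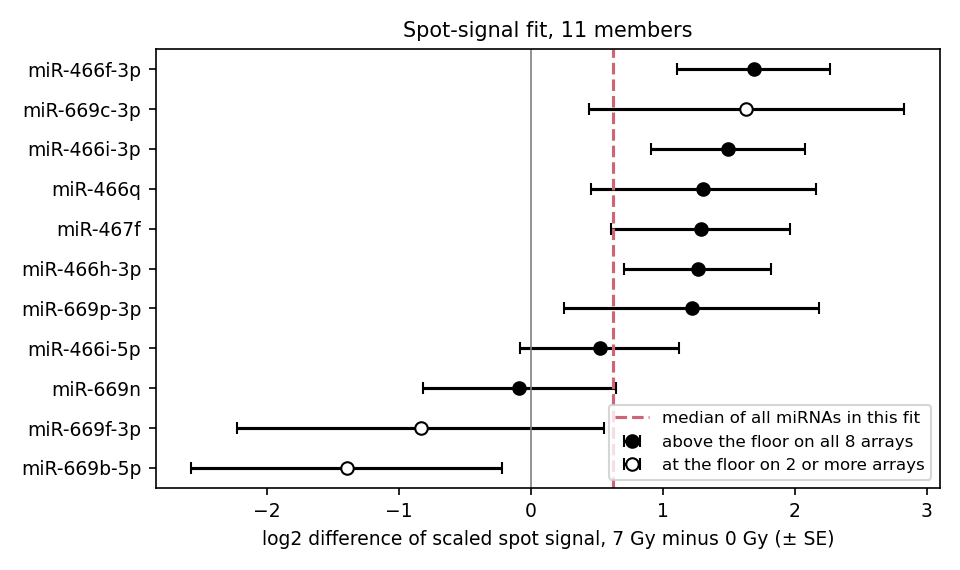
Log2 difference of scaled spot signals, 7 Gy minus 0 Gy, of the 11 members in that fit, with bars of 1 standard error (4 arrays a group). Open circles mark the 3 members at the floor of 1 on at least 2 arrays, whose values depend on it. The dashed line is the median of all 633 miRNAs, 0.62. Of the 8 filled circles 6 lie to the right of that line, and none of the 11 members passed an adjusted p of 0.05.

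Another large imprinted miRNA locus, Dlk1-Dio3, was read beside the members. Of 99 miRNAs from it on the array, 31 (31.3%) were detected at least on 1 array and 5 on all 8. On 7 Gy replicate 2 it had 26 detected, and on 7 Gy replicates 1 and 3 it had 10 and 9, where the members fell from 22 to 2. Outside the members, 5 array miRNAs held UGUGUGUG. miR-574-5p and miR-3082-5p were detected on all arrays, miR-1187 on 7, and miR-32-3p and miR-672-5p on 7 Gy replicate 2 alone, as were 10 members.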

How the data were processed

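The authors extracted serum RNA, labelled it with Cy3 and scanned 1-colour Agilent arrays. The deposited intensity values are Agilent Feature Extraction output (version 11.5 in the submitters' processing notes, another in the methods), background-subtracted and summed over the probes of a miRNA, with 0.1 where a miRNA was not called detected and no normalization between arrays.

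Members were all miRNAs that match the family names. The members, lists and tests were chosen with earlier results of these data known. The 90th percentile over 1881 miRNAs was made equal on all arrays, signals below 100 were raised to 100, and log2 values were fitted. Percentile and cut-off are those of the methods, which do not say how the cut-off was applied. miRNAs detected on at least 3 of 8 arrays and above the floor on 1 entered the comparison by limma (version 3.58.1, R 4.3.3), and p-values were adjusted by Benjamini-Hochberg. The fit was tested on simulated data. Named members were those tested, the 3 of each family with the highest mean signal, and any detected on all arrays of one group only. miR-466f-3p and other members beyond this rule were named after their values were seen. Replicate numbers were no block, since not every same-numbered pair of samples deviated together. Alternatives covered scaling, floor, background correction, filters, blocks and left-out arrays. Mature sequences and positions are from RefSeq (GRCm38.p6), and the array's own grid is on an older build, so no probe positions are given. Files hold no counts, and 4 arrays a group limit the precision. Python 3.11.15 and matplotlib 3.10.9 drew the figures.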

Additional observations from a re-analysis of the deposited data

Results flagged for a closer look

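In 30 sets of 4 median spot signals, each 1 member in 1 group before scaling, 4 had a sample standing apart from the other 3, by a gap to the nearest sample of more than 0.829 of the range. For independent values of a normal distribution, chance flags about 1 set in 20. These sets came from the same 8 arrays before scaling, so that this rate does not hold for them. Each sample that stood apart was on 0 Gy replicate 1 or 7 Gy replicate 2. For miR-297c-5p the gap was 0.859 of the range at 0 Gy, where replicate 1 had 18.2 and the next sample 1.88, and 0.974 at 7 Gy, where replicate 2 had 4.55 and the others were below 0. On that array miR-297c-5p was not called detected, and 4.55 lies under the 95th percentile of its negative control spots, 4.69. For miR-669f-3p it was 0.841 at 0 Gy, where replicate 1 had 55.5 and the next sample 8.18. For miR-669n it was 0.897 at 7 Gy, where replicate 2 had 96.0 and the next sample 11.9.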

How the results depend on the processing

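In all 33 alternatives 0 members were called higher or lower at an adjusted p under 0.05, but 27 of them tested 1 member, miR-466i-5p, and 9 called no miRNA at all. At an unadjusted p under 0.05 miR-466i-5p passed as higher within slide row 2, which holds replicates 3 and 4 of each group. It also passed without 7 Gy replicate 1 and with the labelling covariate. The same held without 7 Gy replicates 1 and 3 together, which left replicates 2 and 4. On spot signals 3 members passed as higher unadjusted, as did 2 after normexp. The fit without the 7 Gy arrays whose labelling was out of range kept 7 Gy replicate 2 alone. That fit gave the highest log2 difference of miR-466i-5p, 1.64. The log2 difference of miR-466i-5p was above 0 in each alternative, from 0.10 to 1.64 (below 0 only with neither floor nor scaling, -0.63), with adjusted p from 0.138 to 0.890. It ran from 0.13 to 0.86 when 1 array was left out, and with the replicate number as a block it was 0.49 (adjusted p = 0.220). The counts over all tested miRNAs, 4 higher and 4 lower, depended on the processing, and the cause was not tested. They were 0 and 0 with no scaling, with scaling to the spike-ins together or to the labelling or hybridization ones alone, with the labelling signal as a covariate, with the replicate block, and without 7 Gy replicates 1 and 3 or all arrays with labelling out of range. They were 2 higher with a floor of 50 or quantile normalization, 2 and 0 with no floor, 9 and 19 with a floor of 10, 2 and 7 on spot signals, 2 and 16 after normexp, and 61 and 14 with array weights. They were 7 and 11 at the 75th percentile and 6 and 1 at the 90th of miRNAs detected on all arrays, 18 and 8 with slide row as a block, 1 and 4 within row 1, and 10 and 7 within row 2. The methods' t-test gave 34 and 14 at 1.5-fold unadjusted, and 1 and 1 adjusted. Leaving out 1 array gave 0 to 48 higher, the latter without 7 Gy replicate 2, and 0 to 11 lower. The log2 difference of miR-466h-3p with no floor was -0.05 with no scaling and 2.97 scaled to the labelling spike-ins. Spike-in settings and the left-out labelling arrays were chosen after seeing the data, except the joint spike-in scaling. 0 Gy samples lay in slide columns 1 and 2 and 7 Gy samples in 3 and 4, so that column and group cannot be told apart. The deviations of same-numbered samples correlated at -0.34 for replicate 1, against 0.43, 0.55 and 0.42 for replicates 2 to 4, and 4 of 8 arrays correlated best with their own number. Most members lay near the background, and their differences were not measurable on arrays without a detection call.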
